A study of Mus musculus with 11 samples.

Results

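The Ifit family is a group of 6 protein-coding genes that lie next to each other on mouse chromosome 19: Ifit1, Ifit1bl1, Ifit1bl2, Ifit2, Ifit3 and Ifit3b. Its members were chosen by name, as the rows of the count tables whose Ensembl identifiers carry these symbols in the GRCm38 annotation, and all 6 were found among 52636 genes. They were measured by RNA-seq in 11 fetal livers at E15.5 of embryonic development, 1 embryo per library. No agent was given to any group.

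The livers came from 3 WT embryos, 2 Tnfr1-/- embryos (Tnfr1 KO in the labels), 3 Casp8-/- Mlkl-/- embryos (Casp8 Mlkl dKO) and 3 Casp8-/- Tnfr1-/- embryos (Casp8 Tnfr1 dKO). All lines were kept on a C57BL/6N background, and the deletions were in the whole body, so no cell type was targeted. TNFR1 is a receptor for TNF, caspase-8 is a protease that restrains necroptosis, and MLKL is the protein that carries out necroptosis. Casp8-/- Mlkl-/- livers therefore lack caspase-8 without being able to undergo this form of death, and Tnfr1-/- livers lack TNFR1 alone. The labels do not tie embryos to litters.

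IFIT proteins (interferon-induced proteins with tetratricopeptide repeats) are made in many cell types after interferon or viral RNA is sensed. IFIT1 binds RNA whose cap lacks ribose methylation and blocks its translation, IFIT2 and IFIT3 form complexes with other IFIT proteins, and human IFIT3 is known to stabilise IFIT1. Type I interferon acts through the kinases JAK1 and TYK2 on a transcription factor complex that holds STAT2 and IRF9 and binds the interferon-stimulated response element in the promoters of these genes.

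The cluster spans 99.32 kb, chr19:34550694-34650009 in GRCm38, with no other protein-coding gene inside. From its start the genes run as Ifit2 (ENSMUSG00000045932, chr19:34550694-34576419, plus strand), Ifit3 (ENSMUSG00000074896, chr19:34583531-34588731, plus), Ifit1bl1 (ENSMUSG00000079339, chr19:34592891-34601956, minus), Ifit3b (ENSMUSG00000062488, chr19:34607970-34613401, plus), Ifit1bl2 (ENSMUSG00000067297, chr19:34617049-34640743, minus) and Ifit1 (ENSMUSG00000034459, chr19:34640871-34650009, plus). Ifit1 and Ifit1bl2 are read in opposite directions from starts that are separated by 127 bases.

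The paralogs share sequence, which matters because the study's methods keep only reads that map to a single place. Ifit3 and Ifit3b were the closest pair, with 99.1% identity over 1209 coding bases, 11 differences and an identical run of 329 bases. Of the 50-base stretches of Ifit3 (50 bases is the read length), 51.24% also occur in Ifit3b, and 44.54% of those of Ifit3b occur in Ifit3. The share found in any other gene was 7.13% for Ifit1, 6.45% for Ifit1bl1, 9.34% for Ifit1bl2 and 0% for Ifit2. Ifit1 was 76.3% identical to Ifit1bl1 and 76.1% to Ifit1bl2 in its coding bases, and Ifit1bl1 and Ifit1bl2 were 88.3% identical. Reads from such stretches would then be missing from both counts of a pair, so the counts of Ifit3 and Ifit3b, and their split, are uncertain. A pair of 90-base windows of coding sequence (GENCODE M21 transcripts) shows both situations, with the bases at which the members differ in capitals. Over coding bases 1 to 90, Ifit3 and Ifit3b differ at 1 base, so a read from there can be assigned only if it covers that base. Over coding bases 630 to 719 of Ifit1 and 651 to 740 of Ifit1bl2 they differ at 21 bases, with a shared stretch at the 5′ end.
Ifit3: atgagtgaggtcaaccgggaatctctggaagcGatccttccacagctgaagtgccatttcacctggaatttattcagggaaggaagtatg
Ifit3b: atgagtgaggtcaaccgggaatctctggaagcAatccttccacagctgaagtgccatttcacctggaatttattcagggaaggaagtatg
Ifit1: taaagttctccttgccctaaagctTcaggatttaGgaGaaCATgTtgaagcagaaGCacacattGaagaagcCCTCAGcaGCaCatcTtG
Ifit1bl2: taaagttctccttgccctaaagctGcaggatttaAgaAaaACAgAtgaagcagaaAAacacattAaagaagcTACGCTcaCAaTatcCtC

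The bases upstream of the genes were searched for GAAANNGAAA, the repeat at the core of the interferon-stimulated response element, on both strands. These sequences are from RefSeq (GRCm38.p6), which had an entry for all 6 members, and motif matches are in capitals (TTTCNNTTTC where the match is on the other strand). Of 32851 RefSeq promoters, 2.98% held the motif in their 250 bases upstream. Ifit3 held 2 matches, at 156 and 122 bases before its start, and Ifit3b held the same pair at 188 and 154. Ifit1bl1 held 1, at 104 bases before its first listed start, and 1 at 23 bases before its second. Between the starts of Ifit1bl2 and Ifit1 lie 2 matches, at 104 and 85 bases before the RefSeq start of Ifit1 and 70 and 51 before the first listed start of Ifit1bl2. Upstream of the second start listed for Ifit1bl2, at chr19:34629811, no match was found. In the 250 bases upstream of both starts listed for Ifit2 these letters were not found. The longer GAAANNGAAACT, which overlaps the first motif, was in 0.22% of promoters and was present 2 times between Ifit1bl2 and Ifit1 and 1 time each upstream of Ifit3 and Ifit3b. A further motif searched, TTCNNNGAA, was in 7.02% of promoters and, among the members, only upstream of the first listed start of Ifit2. These matches are letters in a window and no binding was measured. The 5 windows are shown for their sequence, and a link between these letters and the fold changes was not tested. Coordinates are chr19:34640744-34640870 (between Ifit1bl2 and Ifit1, plus strand), chr19:34601969-34602218 (Ifit1bl1, minus), chr19:34583279-34583528 (Ifit3, plus), chr19:34607707-34607956 (Ifit3b, plus) and chr19:34550444-34550693 (Ifit2, plus).
Ifit1bl2 to Ifit1: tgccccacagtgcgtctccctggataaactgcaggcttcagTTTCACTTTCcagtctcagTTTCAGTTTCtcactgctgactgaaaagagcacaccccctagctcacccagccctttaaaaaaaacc
Ifit1bl1: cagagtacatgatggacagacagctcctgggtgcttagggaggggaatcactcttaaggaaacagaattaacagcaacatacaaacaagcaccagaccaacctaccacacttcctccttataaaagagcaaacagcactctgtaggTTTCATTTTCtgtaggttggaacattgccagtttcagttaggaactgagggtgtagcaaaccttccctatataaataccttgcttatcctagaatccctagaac
Ifit3: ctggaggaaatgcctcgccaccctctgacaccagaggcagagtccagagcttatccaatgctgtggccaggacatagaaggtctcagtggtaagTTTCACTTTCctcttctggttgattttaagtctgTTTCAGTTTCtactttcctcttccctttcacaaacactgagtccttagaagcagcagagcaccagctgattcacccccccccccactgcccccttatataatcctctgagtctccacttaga
Ifit3b: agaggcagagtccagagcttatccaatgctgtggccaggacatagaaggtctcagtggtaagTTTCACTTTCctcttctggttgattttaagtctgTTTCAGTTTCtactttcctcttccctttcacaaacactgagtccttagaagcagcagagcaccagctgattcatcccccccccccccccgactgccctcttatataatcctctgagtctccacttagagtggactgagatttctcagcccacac
Ifit2: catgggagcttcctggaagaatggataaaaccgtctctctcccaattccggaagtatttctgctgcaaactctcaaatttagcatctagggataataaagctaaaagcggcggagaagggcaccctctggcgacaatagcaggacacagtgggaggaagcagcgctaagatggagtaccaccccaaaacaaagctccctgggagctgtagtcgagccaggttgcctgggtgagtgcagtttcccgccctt

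Library totals lay between 23129212 and 35819339 counts. Casp8-/- Tnfr1-/- replicate 3 stood apart: its Pearson's r with each other liver, across genes, was 0.840 to 0.891, against at least 0.949 among the other 10. It held 2065 CPM (counts scaled to a common library size) of 14 striated muscle markers, against 23.4 to 53.7 CPM in the others, and 3409 CPM of Xist, the transcript that coats the inactive X chromosome, against at most 0.57 CPM. Casp8-/- Mlkl-/- replicate 1 had the only other low normalization factor (0.812, and 0.758 in Casp8-/- Tnfr1-/- replicate 3, against 1.01 to 1.09) and the highest level of 11 hepatocyte markers. Casp8 was at 7.82 to 21.9 CPM in the 6 livers labelled as lacking it and at 27.7 to 33.9 CPM in the other 5, and Mlkl was at 0.73 to 1.22 CPM in Casp8-/- Mlkl-/- livers against 3.69 to 24.6 CPM elsewhere. Tnfrsf1a, the gene of TNFR1, was not lower in livers labelled Tnfr1-/- (49.8 to 424.8 CPM, and 45.4 to 77.2 CPM in livers with the gene), so counts summed over all of its exons cannot check that label. Calls of the Ifit genes and counts of interferon genes are also given without the libraries that stood apart. Tests of the OAS family, other single genes, neighbours and cell markers are given with all 11 livers only.

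Ifit1 showed the largest rise of the family. Its level was 0.883, 1.38 and 1.30 CPM in the WT livers and 1.31 and 1.6 CPM in the Tnfr1-/- livers. In the Casp8-/- Mlkl-/- livers it was 8.23, 3.52 and 4.51 CPM, and in the Casp8-/- Tnfr1-/- livers 95.6, 87.1 and 184 CPM. The 3 Casp8-/- Tnfr1-/- livers were above all 8 others, the 3 Casp8-/- Mlkl-/- livers above the 5 with intact Casp8, and the WT and Tnfr1-/- livers overlapped. The log2 fold change in Casp8-/- Tnfr1-/- livers was 6.68 ± 0.46 (SE) against WT (edgeR's quasi-likelihood test, adjusted p = 6.4e-05), 6.39 ± 0.55 against Tnfr1-/- (adjusted p = 3.7e-04) and 4.50 ± 0.41 against Casp8-/- Mlkl-/- livers (adjusted p = 9e-04). In bulk RNA, more cells that express a gene and more RNA per cell cannot be told apart, and this holds for every level given here.

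Ifit3 and Ifit3b, which are nearly the same protein, rose in all 3 comparisons of Casp8-/- Tnfr1-/- livers. Ifit3 measured 1.38, 0.922 and 2.09 CPM in WT, 0.684 and 1.10 CPM in Tnfr1-/-, 5.03, 2.005 and 2.64 CPM in Casp8-/- Mlkl-/-, and 26.2, 19.2 and 15.8 CPM in Casp8-/- Tnfr1-/- livers. Ifit3b measured 0.192, 0.335 and 0.237 CPM in WT, 0.164 and 0.228 CPM in Tnfr1-/-, 1.34, 0.552 and 0.841 CPM in Casp8-/- Mlkl-/-, and 8.91, 6.30 and 3.48 CPM in Casp8-/- Tnfr1-/- livers. For both genes every Casp8-/- Tnfr1-/- liver was above the other 8, with replicate 3 the lowest of them. Against WT the log2 fold change was 3.79 ± 0.44 for Ifit3 (edgeR's quasi-likelihood test, adjusted p = 0.00124) and 4.60 ± 0.50 for Ifit3b (adjusted p = 8.8e-04). Against Casp8-/- Mlkl-/- livers it was 2.67 ± 0.42 for Ifit3 (edgeR adjusted p = 0.0139) and 2.78 ± 0.44 for Ifit3b (edgeR adjusted p = 0.0154). Both calls were lost without Casp8-/- Mlkl-/- replicate 2 (edgeR adjusted p = 0.0713 and 0.0779) or replicate 3 (0.0952 and 0.0972). Against Tnfr1-/- livers the log2 fold change was 4.52 ± 0.55 for Ifit3 and 4.98 ± 0.60 for Ifit3b (edgeR adjusted p = 0.00282 for both). These calls were lost without Tnfr1-/- replicate 1 (edgeR adjusted p = 0.0955 and 0.101) or replicate 2 (0.0585 and 0.0708). With the counts of Ifit3 and Ifit3b summed, so that their split does not matter, the pair rose by 3.95 ± 0.42 on the log2 scale (against WT, edgeR adjusted p = 8.3e-04). The sum does not restore reads from shared stretches, which would be in neither count.

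Ifit2 was the member with the highest count in controls and the smallest fold change. It measured 13.0, 13.5 and 13.6 CPM in WT and 13.1 and 14.1 CPM in Tnfr1-/- livers. It measured 18.6, 15.46 and 16.2 CPM in Casp8-/- Mlkl-/- and 51.8, 38.9 and 23.8 CPM in Casp8-/- Tnfr1-/- livers. The Casp8-/- Tnfr1-/- livers were again above all others, replicate 3 by the least. The log2 fold change was 1.51 ± 0.25 against WT (edgeR's quasi-likelihood test, adjusted p = 0.00744), 1.49 ± 0.28 against Tnfr1-/- (adjusted p = 0.0269) and 1.19 ± 0.24 against Casp8-/- Mlkl-/- livers (adjusted p = 0.0439). The call against Casp8-/- Mlkl-/- livers was lost when any of 9 of the 11 livers was left out, all except Casp8-/- Tnfr1-/- replicate 3 and Casp8-/- Mlkl-/- replicate 1 (edgeR adjusted p up to 0.186). That against Tnfr1-/- livers was lost without either Tnfr1-/- liver, any WT liver or Casp8-/- Tnfr1-/- replicate 2 (edgeR adjusted p up to 0.403).

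Ifit1bl1 and Ifit1bl2, which resemble Ifit1 and are less studied, were the members with the fewest counts. Ifit1bl1 had 4, 1 and 7 counts in WT, 7 and 4 in Tnfr1-/-, 11, 14 and 10 in Casp8-/- Mlkl-/-, and 197, 162 and 6 counts in Casp8-/- Tnfr1-/- livers. The first and the second of the Casp8-/- Tnfr1-/- livers were far above all others, while replicate 3, at 0.342 CPM, was below the 3 Casp8-/- Mlkl-/- livers (0.382 to 0.446 CPM). Ifit1bl2 had 4, 4 and 3 counts in WT, 4 and 6 in Tnfr1-/-, 14, 4 and 5 in Casp8-/- Mlkl-/-, and 58, 40 and 13 in Casp8-/- Tnfr1-/- livers. Scaled for depth, the lowest Casp8-/- Tnfr1-/- liver (0.741 CPM) was above the highest other (0.568 CPM).

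For Ifit1bl1 the difference from WT was 4.62 ± 0.94 on the log2 scale (edgeR's quasi-likelihood test, adjusted p = 0.0209), and for Ifit1bl2 it was 3.12 ± 0.64 (adjusted p = 0.0216). Both calls were lost without any 1 of the WT livers: without WT replicate 1, 2 or 3 the edgeR adjusted p was 0.101, 0.101 and 0.0757 for Ifit1bl1 and 0.0961, 0.0942 and 0.116 for Ifit1bl2. Against Tnfr1-/- livers the adjusted p was 0.0741 for Ifit1bl1 and 0.0778 for Ifit1bl2, and against Casp8-/- Mlkl-/- livers 0.101 and 0.117 (edgeR). Without Casp8-/- Tnfr1-/- replicate 3 these became 4.98e-04, 0.0219, 9.3e-04 and 0.0427, in the same order. Without Casp8-/- Mlkl-/- replicate 1 Ifit1bl2 also passed, with adjusted p = 0.022 against Tnfr1-/- and 0.0243 against Casp8-/- Mlkl-/- livers (edgeR).

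**Figure D1:**
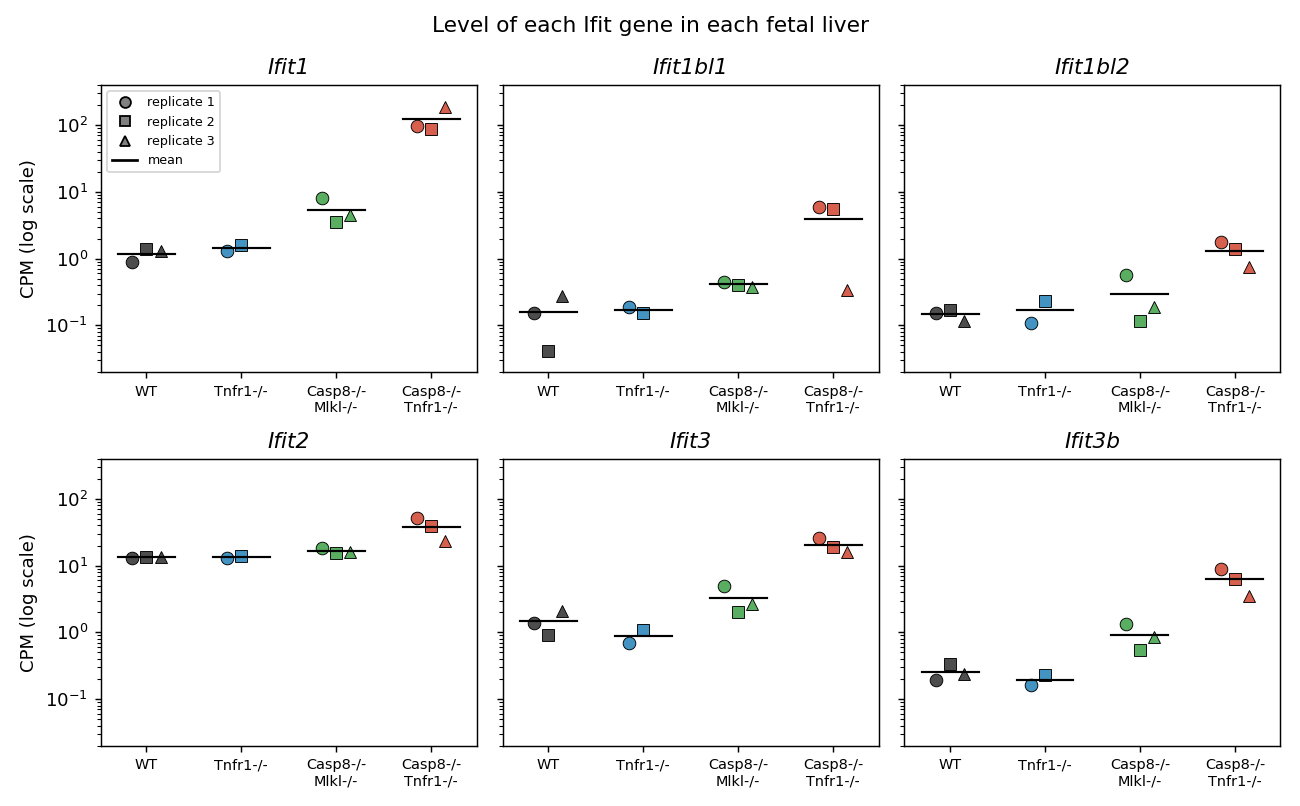
CPM of each Ifit gene (log scale) in each of 11 fetal livers, by genotype, with a symbol for each replicate and a line at the group mean. The Casp8-/- Tnfr1-/- livers are the highest for each gene except Ifit1bl1, where replicate 3 (triangle) falls to 0.342 CPM, and replicate 3 is the highest of them for Ifit1 and the lowest for the 5 other genes.

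Counted over the family, 6 of 6 members rose in Casp8-/- Tnfr1-/- against WT livers, where 5.1% of 17243 genes tested were called higher. Against Tnfr1-/- livers 4 of 6 rose, against 2.05% of all genes, and against Casp8-/- Mlkl-/- livers 4 of 6, against 1.54%. No member fell, where 0.702%, 0.122% and 0.116% of genes were called lower. The same Casp8-/- Tnfr1-/- livers enter all of these comparisons. The median log2 fold change over the members was 4.20, 4.51 and 2.73 in these comparisons, beside medians of 0.00, -0.01 and -0.03 over all genes tested. All 6 passed the filter on low counts, but Ifit1bl2 reached the minimum in only 1 of the 8 control livers and so passed through the livers in which it was high, which makes its call no evidence for the family. Ifit1bl1 and Ifit3b reached it in 2 and 3 control livers, all Casp8-/- Mlkl-/-, and in no WT or Tnfr1-/- liver. Their calls against WT and Tnfr1-/- livers are therefore a description. So are the 6 of 6, the 4 of 6 against Tnfr1-/- livers, which includes Ifit3b, and the medians. Ifit1, Ifit2 and Ifit3 reached it in all 11 livers and were called in all 3 comparisons. Without Casp8-/- Tnfr1-/- replicate 3 all 6 were called in all 3 comparisons, which for Ifit1bl1, Ifit1bl2 and Ifit3b is again a description. Against Tnfr1-/- livers 1 was called without either Tnfr1-/- liver, and against Casp8-/- Mlkl-/- livers 1 without Casp8-/- Mlkl-/- replicate 2 or 3, each time Ifit1. When only the genotypes compared were fitted, 5, 2 and 0 members were called.

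Over single genes, the 3 Casp8-/- Tnfr1-/- livers were above all 8 others for Ifit1, Ifit2, Ifit3 and Ifit3b, a pattern seen in 7.43% of genes tested. For these 4 the exact permutation test of log2 CPM (two-sided, 3 livers against 8) gave p = 0.00606, the smallest it can give. For Ifit1bl1 exact permutation p was 0.0242. Ifit1bl2 was also above all 8, but having passed the filter only through these livers it was not counted.

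**Figure D2:**
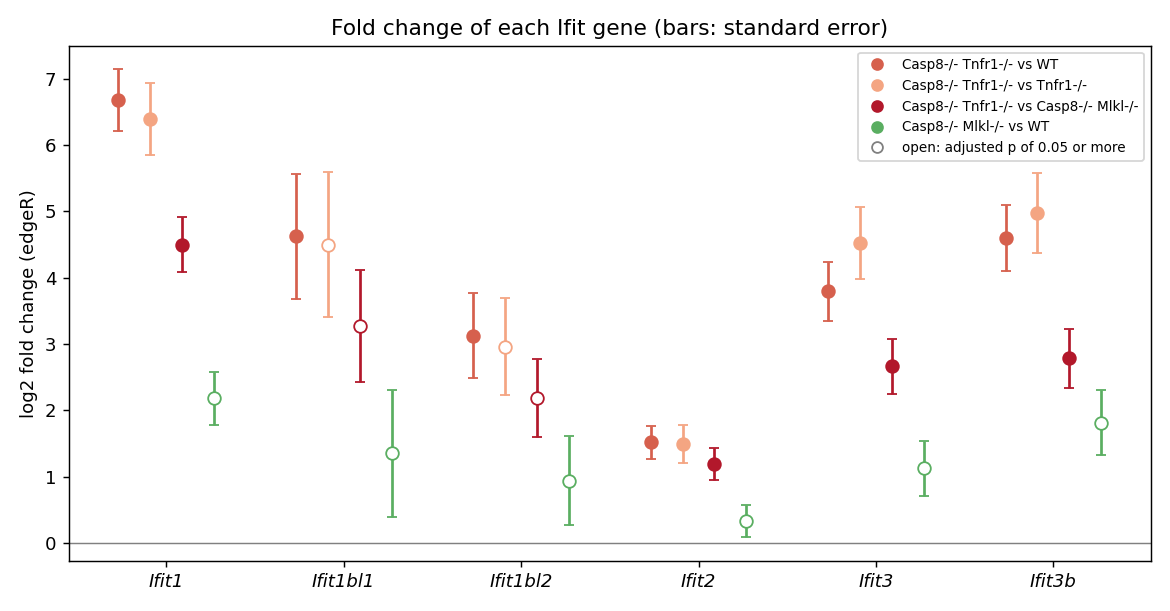
Log2 fold change of each Ifit gene in 4 comparisons (edgeR; bars are the standard error; filled points have an adjusted p under 0.05). In Casp8-/- Tnfr1-/- livers the values against WT run from 1.51 for Ifit2 to 6.68 for Ifit1, and the values of Casp8-/- Mlkl-/- against WT livers are all above 0 but open.

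Casp8-/- Mlkl-/- livers lack caspase-8 but not TNFR1. Their levels of Ifit1, Ifit2 and Ifit3b lay above those of all WT and Tnfr1-/- livers and below those of all Casp8-/- Tnfr1-/- livers. For Ifit3 and Ifit1bl2 they overlapped with WT livers, and for Ifit1bl1 they were above Casp8-/- Tnfr1-/- replicate 3. No member was called against WT or against Tnfr1-/- livers by edgeR, where 0.0058% of genes (1 gene) were called higher in each, but at an unadjusted p under 0.05 there were 3 in each, Ifit1, Ifit3 and Ifit3b. DESeq2 called 1 in each (Ifit1), limma-voom 0, and limma-voom with quality weights 1 against WT and 3 against Tnfr1-/- livers. The log2 fold change of Ifit1 against WT was 2.18 ± 0.40 (edgeR adjusted p = 0.216), and that of Ifit3b was 1.81 ± 0.48 (adjusted p = 0.706). That of Ifit1 was 1.75 without Casp8-/- Mlkl-/- replicate 1, the highest liver of its group for every member. Without Casp8-/- Tnfr1-/- replicate 3, which enters only through the shared spread, Ifit1 was called (edgeR adjusted p = 0.0493). The median over the members was 1.24 against WT and 1.54 against Tnfr1-/- livers, and 0.03 and 0.02 over all genes tested.

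All 3 Casp8-/- Mlkl-/- livers were above all 5 WT and Tnfr1-/- livers for Ifit1, Ifit1bl1, Ifit2 and Ifit3b, 4 of 6 members, a pattern found in 5.61% of genes tested. Ifit1bl1 and Ifit3b reached the minimum of the filter only in livers that lack caspase-8, so they are counted here as a description. The exact permutation test of log2 CPM (two-sided, 3 livers against 5) gave p = 0.0179 for Ifit1, Ifit2 and Ifit3b, the smallest it can give, with differences of 1.94, 0.31 and 1.64 on the log2 scale. Exact permutation p was 0.0357 for Ifit1bl1, 0.0536 for Ifit3 and 0.321 for Ifit1bl2. Without replicate 1 the difference was 1.59 for Ifit1, 0.23 for Ifit2 and 1.34 for Ifit3b, each still with the smallest p of its exact permutation test (0.0476). For Ifit1bl1 the exact permutation p was then 0.143. These p-values are not adjusted over the 6 members.

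TNFR1 loss alone was not accompanied by a change that passed the test. Between Tnfr1-/- and WT livers no member was called by edgeR, DESeq2 or limma-voom, 0 had an unadjusted p under 0.05, and 0% of all genes tested were called. The log2 fold changes lay between -0.73 (Ifit3, SE 0.49) and 0.29 (Ifit1, SE 0.46).

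Levels of different members were compared per kilobase of the exon length deposited with the counts. In WT livers Ifit2 led with 3.50 ± 0.09 CPM per kilobase (SD, n = 3), followed by Ifit3 at 0.84 ± 0.34, Ifit1 at 0.448 ± 0.101, Ifit3b at 0.127 ± 0.037, Ifit1bl1 at 0.069 ± 0.052 and Ifit1bl2 at 0.044 ± 0.0075. In Casp8-/- Tnfr1-/- livers Ifit1 led with 46.0 ± 20.2 CPM per kilobase (SD, n = 3), followed by Ifit3 at 11.7 ± 3.06, Ifit2 at 9.99 ± 3.68, Ifit3b at 3.11 ± 1.36, Ifit1bl1 at 1.75 ± 1.39 and Ifit1bl2 at 0.385 ± 0.154. The WT ranges of Ifit3b, Ifit1bl1 and Ifit1bl2 overlapped with their neighbours in this order, and in Casp8-/- Tnfr1-/- livers those of Ifit3 and Ifit2, of Ifit3b and Ifit1bl1, and of Ifit1bl1 and Ifit1bl2 did. Ifit1 did not overlap with the next gene in either group. When only stretches found in no other gene were taken as length, Ifit3 came to 24.7 ± 6.45 and Ifit3b to 5.80 ± 2.53 CPM per kilobase in Casp8-/- Tnfr1-/- livers, and the order was the same. The range of Ifit3 (19.1 to 31.7) was then above that of Ifit2 (6.13 to 13.4), and that of Ifit3b (3.24 to 8.30) reached into it.

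The summed level of the 6 genes was 4.73 to 5.53 CPM per kilobase in WT, 4.51 to 5.18 with TNFR1 lost, 7.01 to 11.9 for the Casp8-/- Mlkl-/- genotype and 60.0 to 86.6 in Casp8-/- Tnfr1-/- livers, with Casp8-/- Tnfr1-/- replicate 3 the highest. The make-up of this sum changed as well. Ifit2 held 64.5% to 73.3% of it in WT and 71.4% to 75.9% in Tnfr1-/- livers, but only 41.0% to 57.8% for the Casp8-/- Mlkl-/- genotype and 7.18% to 18.8% in Casp8-/- Tnfr1-/- livers. Ifit1 held 7.03% to 11.6% in WT and Tnfr1-/- livers, 18.9% to 26.1% for the Casp8-/- Mlkl-/- genotype and 49.8%, 54.7% and 79.9% in Casp8-/- Tnfr1-/- livers. With the length of unique stretches the share of Ifit1 in Casp8-/- Tnfr1-/- livers was 41.0% to 72.5%. That of Ifit2 was then 50.4% to 67.1% in WT and Tnfr1-/- livers and 5.84% to 13.9% in Casp8-/- Tnfr1-/- livers. Ifit3 held between 8.69% and 24.2% in all 11 livers, and between 16.5% and 38.2% with the length of unique stretches.

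**Figure D3:**
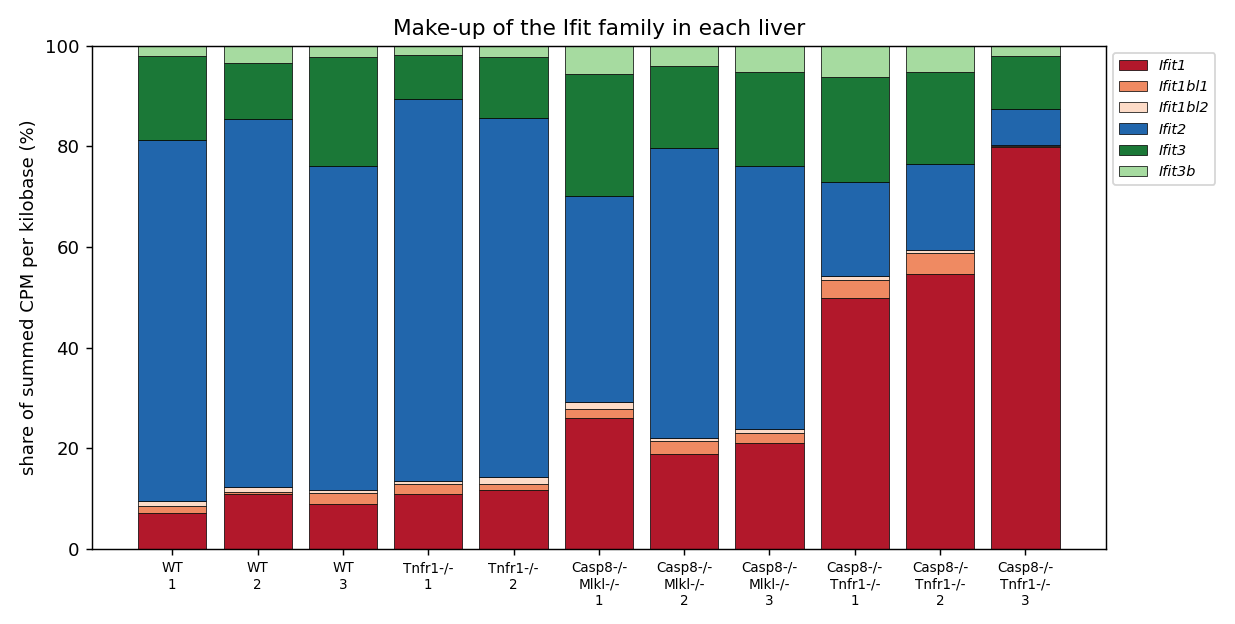
Share of each Ifit gene in the summed CPM per kilobase of the family, in percent, with a bar for each liver (replicate number under the genotype). Ifit2 holds 64.5% or more in each WT and Tnfr1-/- liver and 18.8% or less in each Casp8-/- Tnfr1-/- liver, where Ifit1 holds 49.8% or more.

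Whether the members rose by different factors was tested within livers. The log2 ratio of the counts of 2 members does not depend on library size or normalization, and it was compared between the 3 Casp8-/- Tnfr1-/- and the 8 other livers by an exact permutation test for all 15 pairs. After Benjamini-Hochberg adjustment over the pairs, 8 of 15 had changed. Ifit1 had gained on Ifit2, Ifit3, Ifit3b and Ifit1bl2, and Ifit3, Ifit3b and Ifit1bl2 had gained on Ifit2 (these 7 had exact permutation p = 0.00606, the smallest possible, adjusted p = 0.013). Ifit3b had gained on Ifit1bl2 (exact permutation p = 0.0242, adjusted p = 0.0454). The 3 called pairs that hold Ifit1bl2 are given as a description only, since it passed the filter through the Casp8-/- Tnfr1-/- livers. Without Casp8-/- Mlkl-/- replicate 1 the pair of Ifit3b and Ifit1bl2 lost its call (exact permutation p = 0.0333, adjusted p = 0.0556) and the 7 others passed (exact permutation p = 0.00833, adjusted p = 0.0179).

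The log2 ratio of Ifit1 to Ifit2 was 0.88, 1.16 and 2.95 in the Casp8-/- Tnfr1-/- livers and -3.85 to -1.18 in the others, a difference of 4.42. For Ifit1 to Ifit3 it was 1.86, 2.18 and 3.54, against -0.68 to 0.93 in the others, a difference of 2.15. The ratio of Ifit3 to Ifit3b, the pair with nearly the same sequence, was 1.78 ± 0.34 (SD, n = 3) and 2.09 ± 0.55 (SD, n = 8) on the log2 scale, a difference within the spread (exact permutation p = 0.4, adjusted p = 0.5). Without Casp8-/- Tnfr1-/- replicate 3, 7 pairs passed: those of Ifit1 with Ifit2, Ifit3b and Ifit1bl2 and those of Ifit2 with each other member except Ifit1 again, now Ifit1bl1 included. The exact permutation p of these was 0.0222, adjusted p = 0.0476, and the ratios of Ifit1 to Ifit3 (difference 1.65) and of Ifit1bl2 to Ifit3b (difference -1.25) no longer passed (exact permutation p = 0.0444, adjusted p = 0.0741).

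Casp8-/- Tnfr1-/- replicate 3 differed from its group in the mix of members more than in the sum. Relative to the mean of replicates 1 and 2, its log2 CPM differed by 1.01 for Ifit1, -0.51 for Ifit3, -0.92 for Ifit2, -1.01 for Ifit1bl2, -1.09 for Ifit3b and -3.82 for Ifit1bl1. Its ratio of Ifit1 to Ifit1bl1 counts was 8.96 on the log2 scale, against 3.99 and 3.96 in replicates 1 and 2 and 2.16 to 4.48 in the 8 other livers. The ratios of Ifit2 to Ifit3b (2.76 against 2.54 and 2.62) and of Ifit1bl2 to Ifit3b (-2.19 against -2.32 and -2.18) were close to those of the other livers of the group. Values of this liver have no second liver like it, so no test was made.

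The OAS family, which includes the enzymes that make the activator of RNase L and is also induced by interferon, was taken for comparison. Of its 12 genes 9 were tested, and 8 rose in Casp8-/- Tnfr1-/- livers against WT, 7 against Tnfr1-/- and 7 against Casp8-/- Mlkl-/- livers. Of all genes tested, 5.1%, 2.05% and 1.54% were called higher in these comparisons. Its median log2 fold change against WT was 5.05. In Casp8-/- Tnfr1-/- replicate 3, 7 of 9 OAS genes were above the mean of replicates 1 and 2, as was 1 of 6 Ifit genes. So were 6 of 6 interferon receptor genes tested, 9 of 12 genes of signal transduction and 7 of 8 feedback genes. The count is thus not particular to the OAS family. The share over all genes tested is not given here, so these counts only describe this 1 liver. Oas1e was at 0 counts in all WT and Tnfr1-/- livers, 1 to 15 in Casp8-/- Mlkl-/- and 6 to 77 in Casp8-/- Tnfr1-/- livers. It was not called against WT (edgeR adjusted p = 0.101). As it passed the filter through the Casp8-/- Tnfr1-/- livers, the counts and the median of the OAS family that include it are a description. The fold changes of both families come from the same livers, and the difference between the families was not tested.

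**Figure D4:**
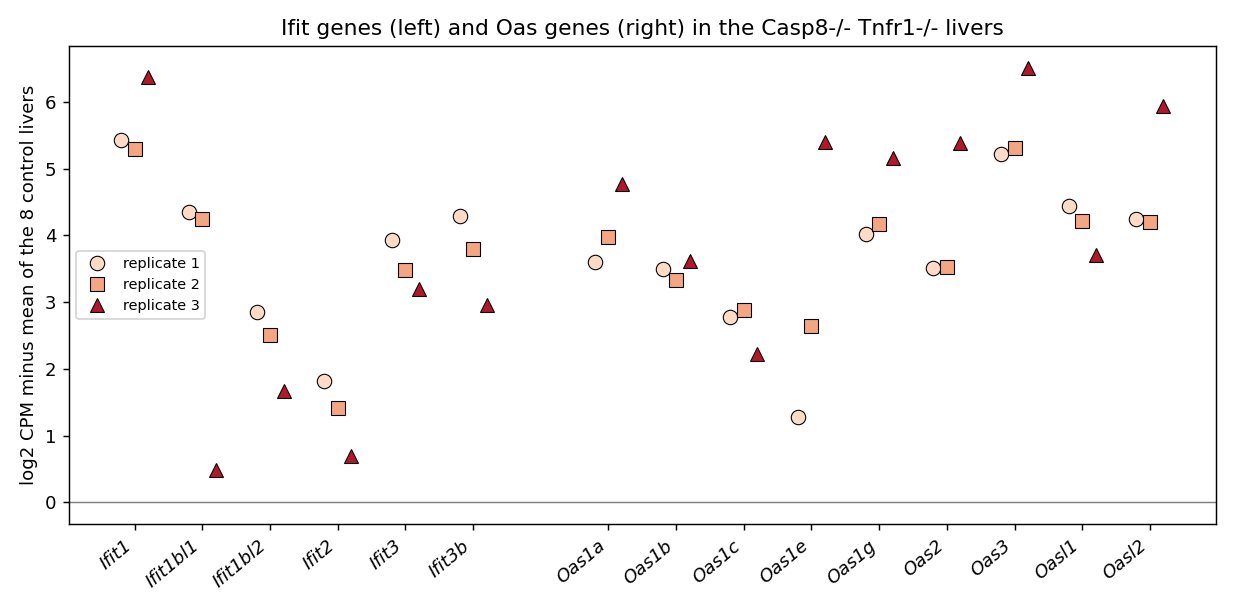
Log2 CPM of the 6 Ifit genes (left) and the 9 tested Oas genes (right) in each Casp8-/- Tnfr1-/- liver, minus the mean of the 8 other livers. Replicate 3 (triangle) is the lowest of the 3 livers for 5 Ifit genes, at 0.48 for Ifit1bl1, and the highest for 7 of the Oas genes.

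The 11 interferon ligand genes listed were hardly counted. Of the interferon alpha genes, only Ifna1, Ifna2, Ifna4 and Ifna5 were on the list. Of the 17 ligand and receptor genes, the 11 ligands were below the filter: Ifna1, Ifna2, Ifna4, Ifna5, Ifne and Ifnl3 had 0 counts in all 11 livers, and Ifnb1, the gene of interferon beta, had 1 count in each of Casp8-/- Tnfr1-/- replicates 1 and 2 and Casp8-/- Mlkl-/- replicate 3. The largest count of any ligand was 3, of Ifng, so a difference in these genes was not detectable at this depth. Of the 6 receptor genes, Ifngr2 and Ifnlr1 rose against WT (by 0.85 and 3.55 on the log2 scale, edgeR adjusted p = 0.0262 and 0.0196), where 5.1% of all genes tested were called higher. None was called against the other genotypes. For Ifnar1, a chain of the type I interferon receptor, the level was 89.4 ± 14.6 CPM in Casp8-/- Tnfr1-/- and 72.2 ± 1.57 CPM in WT livers (SD, n = 3 each).

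Among 12 genes of signal transduction, 5 rose against WT, 5 against Tnfr1-/- and 4 against Casp8-/- Mlkl-/- livers, and none fell. Stat2 and Irf9 were among them in every comparison. Against WT the log2 fold change was 2.13 ± 0.28 for Stat2 (edgeR adjusted p = 0.00264) and 1.88 ± 0.14 for Irf9 (edgeR adjusted p = 1.02e-04). Irf7, which amplifies interferon production, rose by 4.67 ± 0.34 (edgeR adjusted p = 9.1e-05). Of 8 feedback genes, 5 rose against WT and 3 each against Tnfr1-/- and Casp8-/- Mlkl-/- livers, Isg15, a ubiquitin-like protein, by 6.63 ± 0.63 against WT (edgeR adjusted p = 3.9e-04), and Usp18, which removes it and restrains the receptor, by 4.29 ± 0.39 (adjusted p = 2.9e-04). Of these 26 interferon genes tested, 12, 8 and 7 rose in the 3 comparisons. Beside these counts, and those of the 12 and 8 genes, stand 5.1%, 2.05% and 1.54% of all genes tested. Without WT replicate 2 or 3 the count against WT was 7, without Tnfr1-/- replicate 1 or 2 that against Tnfr1-/- livers was 3 and 4, and without both libraries that stood apart the counts were 20, 19 and 18.

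Of 24 listed genes of cap methylation and initiation of translation, 23 were tested and 1 rose in each comparison, Eif2ak2, the gene of the RNA-activated kinase PKR, with a log2 fold change of 1.89 ± 0.20 against WT (edgeR adjusted p = 8e-04). Of all genes tested, 5.1%, 2.05% and 1.54% were called higher against WT, Tnfr1-/- and Casp8-/- Mlkl-/- livers. The median of the list against WT was -0.21, and no gene of it fell. Cmtr1, the cap ribose methyltransferase, was at 14.1 ± 3.24 CPM in Casp8-/- Tnfr1-/- and 10.6 ± 0.40 CPM in WT livers (SD, n = 3 each) and was not called.

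Of the 5 protein-coding genes nearest on each side, 9 were tested, and 1 was called against WT and 0 against Tnfr1-/- or Casp8-/- Mlkl-/- livers. Of all genes tested, 5.1% were called higher and 0.702% lower against WT. The gene called was Ch25h, 75.5 kb before the cluster, which makes 25-hydroxycholesterol, with a log2 fold change of 5.37 ± 1.30 (edgeR adjusted p = 0.0416). The nearest neighbours, Lipa (23.2 kb before the cluster) and Slc16a12 (18.4 kb after it), had log2 fold changes of -0.23 ± 0.22 and -0.25 ± 0.21 against WT, with edgeR adjusted p = 0.521 and 0.457.

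**Figure D5:**
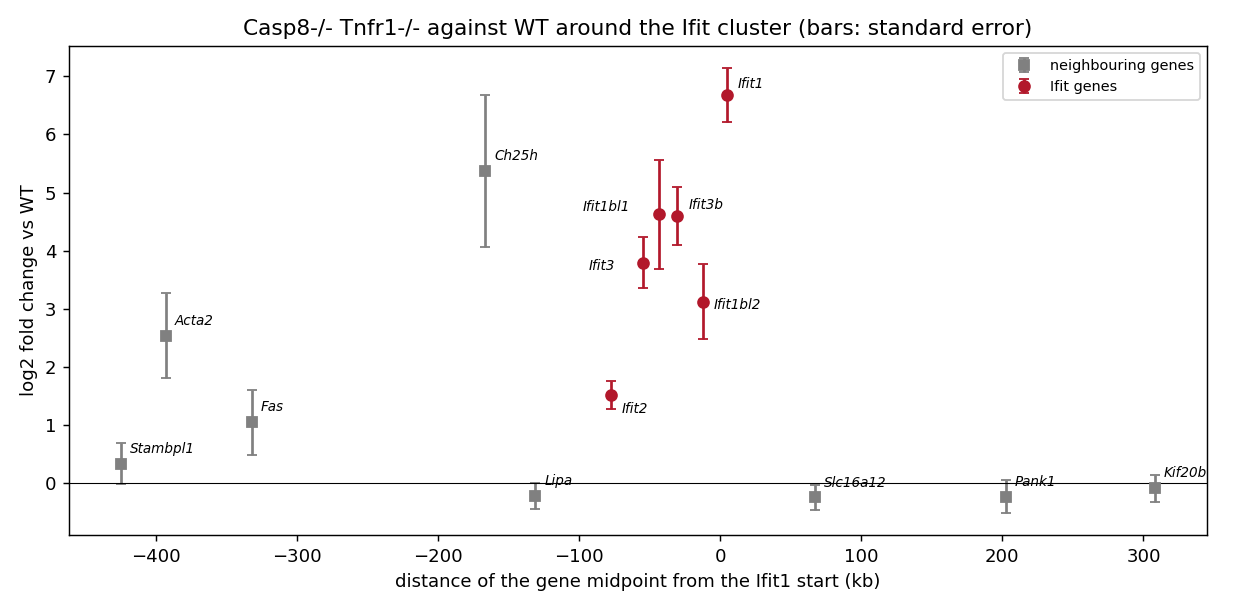
Log2 fold change in Casp8-/- Tnfr1-/- against WT livers (edgeR; bars are the standard error) of the 6 Ifit genes (circles) and of 8 neighbouring genes (squares) by distance of the gene midpoint from the start of Ifit1, in kb. Lipa and Slc16a12, on either side of the cluster, lie at -0.23 and -0.25, while Ch25h lies at 5.37; a more distant gene, Rpp30 (-0.42), is outside the plot.

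Genes elsewhere in the genome with the most similar pattern were ranked by Pearson's r of their log2 CPM with the mean log2 CPM of the 6 members over the 11 livers. The 8 highest were Ifih1 (r = 0.989), the RNA sensor MDA5, Gbp3 (0.988), Ccl4 (0.982), Oasl1 (0.982), Tapbp (0.981), Lgals3bp (0.981), Parp14 (0.981) and Vnn1 (0.981). The livers of a genotype share its level, so these values describe the step between genotypes. Among the members themselves r ran from 0.758 (Ifit1 and Ifit1bl1) to 0.973 (Ifit3 and Ifit3b).

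Markers of other cells also differed between these livers. All 12 neutrophil markers tested had positive fold changes in Casp8-/- Tnfr1-/- against WT livers and 6 rose (6 of 12, beside 5.1% of all genes). Their summed level was 5335, 6585 and 15160 CPM in Casp8-/- Tnfr1-/- replicates 1, 2 and 3. It was 1140 to 1655 CPM in WT livers and 1376 to 1404 CPM with TNFR1 lost. In Casp8-/- Mlkl-/- livers it was 3474 CPM in replicate 1, which stood apart, and 1328 and 1455 CPM in replicates 2 and 3. None of the 12 was at 0 in any liver, and 1 rose against Tnfr1-/- and 0 against Casp8-/- Mlkl-/- livers (beside 2.05% and 1.54% of all genes). Of 15 macrophage markers 2 rose and 2 fell against WT, beside 5.1% and 0.702% of all genes. Against Casp8-/- Mlkl-/- livers 3 fell, beside 0.116% of all genes. The 15 macrophage markers summed to 2268 CPM in Casp8-/- Mlkl-/- replicate 1 and to 914 and 999 CPM in replicates 2 and 3. In Casp8-/- Tnfr1-/- livers their sum was 1099 to 1159 CPM, against 701 to 966 CPM in WT livers and 862 to 909 CPM with TNFR1 lost. The higher sum rests on Lyz2, a lysozyme gene that neutrophils also express, at 559 to 815 CPM in Casp8-/- Tnfr1-/- and 168 to 279 CPM in WT livers. The other 14 summed to 322 to 540 CPM in Casp8-/- Tnfr1-/- and 533 to 686 CPM in WT livers. Of the 9 erythroid, 7 hemoglobin, 11 hepatocyte and 10 endothelial genes tested, 0, 0, 0 and 1 were called higher against WT and none lower. Casp8-/- Tnfr1-/- replicate 3 stood apart here too. Its summed hemoglobin genes were at 171700 CPM, against 34640 and 36370 CPM in replicates 1 and 2. Its summed hepatocyte markers were at 113200 CPM, against 61460 and 60150 CPM. The markers that define fetal liver were present in every group, at 54620 CPM or more for the summed hepatocyte and 11390 CPM or more for the summed erythroid list. Of 14 striated muscle markers 0 were called, with a median log2 fold change of 5.81, and their summed level was 53.7, 32.6 and 2065 CPM in the Casp8-/- Tnfr1-/- livers. The part of these cells in the levels of the Ifit genes was not tested.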

How the data were processed

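RNA was sequenced from 11 whole fetal livers (single-end reads of 50 bases), and 1 table per liver was used. Per the study's methods and the submitters' processing notes, the authors aligned reads to the mouse genome (GRCm38) with GSNAP and used uniquely mapped reads. The count values deposited are whole numbers per gene, not normalized, with totals of 23129212 to 35819339 per liver (median 25733946). The RPKM values deposited by the authors beside them were scaled per kilobase and library and were not used for results. The counting tool, its annotation and its strand setting are not given in the sources used here.

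Genes were named by Ensembl identifier (GENCODE M21, 52403 of 52636 matched). Genes passing filterByExpr (minimum count 10, 17243 genes) were scaled by TMM and tested in 1 fit of all 11 livers with genotype as the only term (edgeR 4.0.16 quasi-likelihood test, R 4.3.3), with Benjamini-Hochberg adjustment over all genes tested and a threshold of 0.05. CPM used TMM-scaled library sizes, log2 CPM a prior count of 2 and count ratios a pseudocount of 0.5. Level per kilobase used the deposited exon length. Single values were compared by exact two-sided permutation tests. DESeq2 1.42.0, limma 3.58.1 (voom), other scalings and filters, a fit of only the genotypes compared, a replicate block and each liver left out were alternatives. The scripts (Python 3.11.15, numpy 2.4.6, pandas 2.3.3, Biopython 1.88, matplotlib 3.10.9) were tested on simulated data.

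The members and gene lists (interferon ligands and receptors, transduction, feedback, cap and initiation factors, OAS, and markers of macrophages, neutrophils, erythroid cells, hepatocytes, endothelium and striated muscle, and hemoglobins) were chosen with earlier results of these data known. Named genes were the members, genes of these lists, the 5 protein-coding neighbours on each side and the 8 genes most correlated with the members. Nothing ties livers to litters, so p-values measure the spread between these livers. The values of 1 gene of the transduction list are not reported here.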

Additional observations from a re-analysis of the deposited data

How the results depend on the processing

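In Casp8-/- Tnfr1-/- livers Ifit1 was called against WT and Tnfr1-/- livers in each alternative, and against Casp8-/- Mlkl-/- livers in each except the fit of only the genotypes compared (edgeR adjusted p = 0.0542). That fit called 2 members against Tnfr1-/- and 0 against Casp8-/- Mlkl-/- livers, and 4 and 0 interferon pathway genes (ligands, receptors, transduction and feedback). With 1 liver left out, member calls ranged from 4 to 6 against WT, 1 to 6 against Tnfr1-/- and 1 to 6 against Casp8-/- Mlkl-/- livers, and pathway calls from 7 to 14, 3 to 11 and 6 to 10. In Casp8-/- Mlkl-/- against WT livers both counts ranged from 0 to 1. DESeq2 called 14 pathway genes against Tnfr1-/- livers, and in Casp8-/- Mlkl-/- livers 1 member and 4 pathway genes against WT and the same numbers against Tnfr1-/-. Without a filter 1 member and 1 pathway gene were called in Casp8-/- Mlkl-/- against WT livers.

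A pair of alternatives was chosen after seeing the data. Limma-voom with quality weights called 19, 19 and 16 pathway genes in Casp8-/- Tnfr1-/- livers (against WT, Tnfr1-/- and Casp8-/- Mlkl-/-), and leaving out Casp8-/- Tnfr1-/- replicate 3 and Casp8-/- Mlkl-/- replicate 1 together gave 20, 19 and 18. In Casp8-/- Mlkl-/- livers each called 1 member and 7 pathway genes against WT, and 3 members and 6 pathway genes against Tnfr1-/-.

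Deviations of same-numbered livers from their genotype means had r from -0.30 to 0.27, over 0.1 in 5 of 15 pairs. With means of 2 or 3 livers this cannot decide whether the numbers pair them. With the replicate block 5, 3 and 3 members were called in the 3 comparisons of Casp8-/- Tnfr1-/- livers. It turned the uncalled differences of Tnfr1-/- from WT livers to -0.25 (Ifit1bl1), -0.050 (Ifit1bl2) and -0.08 (Ifit2).

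Other changes of sign were in uncalled values. With 1 liver left out, Tnfr1-/- against WT ranged from -0.30 to 0.78 for Ifit1bl1, -0.41 to 0.62 for Ifit1bl2 and -0.031 to 0.080 for Ifit2, and Casp8-/- Mlkl-/- against Tnfr1-/- from -0.12 to 1.34 for Ifit1bl2. The value of Ifit1bl2 was -0.030 with quality weights (Tnfr1-/- against WT) and -0.10 without both libraries (Casp8-/- Mlkl-/- against Tnfr1-/-). The cause of these changes was not tested. Counts under 10 per liver limit Ifit1bl1, Ifit1bl2 and Ifit3b in WT and Tnfr1-/- livers.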
